A study of Mus musculus with 31 samples.

Results

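The genes described here are 10 genes of hepatic glucose production: the enzyme and transporter genes Gpt2, Pcx, Mdh1, Got1, Pck1, Fbp1, G6pc and Slc37a4, the coactivator gene Ppargc1a and the transcription factor gene Klf15. They were taken by gene symbol from the platform annotation, out of 22180 genes measured, and each of the 10 was read by 1 probe set. RNA from 31 livers was measured on microarrays, 1 array per liver, and the mice were C57BL/6 males, 3 to 4 months old. The Fast-Fast-Fast group (n = 7) had 2 earlier fasts of 16 h within 8 weeks and was sampled at the end of a further 16 h fast. The Fed-Fed-Fast group (n = 8) had 0 earlier fasts and was sampled after the same fast. The Fast-Fast-Fed group (n = 8) had 2 earlier fasts and was sampled fed, and the Fed-Fed-Fed group (n = 8) had 0 earlier fasts and was sampled fed. All livers were taken in the morning, and mice ate freely outside the fasts. Each title was read as 1 mouse, so that p-values measure the spread between these samples.

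Gluconeogenesis makes glucose from lactate, glycerol and amino acids, and in a fasted mouse the liver is its main site once glycogen is spent. Pyruvate enters mitochondria and is carboxylated to oxaloacetate, which leaves as malate or aspartate, is rebuilt in the cytosol and is turned into phosphoenolpyruvate. Most later steps are those of glycolysis run backwards, apart from the steps of fructose-1,6-bisphosphatase and glucose-6-phosphatase. Glucagon, through cAMP and the factor CREB, and glucocorticoids are known to raise this programme, and insulin to lower it through FoxO1.

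The deposited values were log2 signals made with RMA, and every level and change below is on that log2 scale, where a difference of 1 is a factor of 2. Array medians ran from 2.01 to 2.07. Of 7 measured hepatocyte markers, such as the albumin gene Alb, the lowest averaged 8.59 over all arrays. Their summed signal, given as the log2 of the sum, was 14.63 to 14.71 in Fast-Fast-Fast, 14.61 to 14.72 in Fed-Fed-Fast, 14.68 to 14.74 in Fast-Fast-Fed and 14.66 to 14.77 in Fed-Fed-Fed livers. Such a sum is weighted to the brightest markers. Taken singly, 2 of the 7 rose and 1 fell in fasted against fed livers with 2 earlier fasts (adjusted p under 0.05 in limma). With 0 earlier fasts 2 rose and 2 fell. Of all genes, 11.6% changed with 2 earlier fasts and 12.5% with 0. Hnf4a, 1 of the 7 markers, is also among the regulators counted below. Fed-Fed-Fast replicate 4 stood apart in 5 adipocyte markers, with a mean of 3.38 against at most 1.85 in any other array, and values without it are given where they matter. None of these 5 markers averaged 4 or more over all arrays. Precision is limited by the number of arrays.

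The promoters of 4 of the genes are shown because they hold matches to hormone response motifs. Each line gives the 250 bases before the transcription start, 5′ to 3′, from RefSeq on GRCm38.p6. Capitals mark the cAMP response element core, TGACGT, on either strand. In G6pc they mark the element TTACGTAA, and the core of an insulin response sequence, CAAAACA, here on the minus strand. The windows are chr2:173152823-173153072 on the plus strand for Pck1, chr11:101367466-101367715 on the plus strand for G6pc, chr5:51567726-51567975 on the minus strand for Ppargc1a and chr9:44396696-44396945 on the plus strand for Slc37a4.
Pck1: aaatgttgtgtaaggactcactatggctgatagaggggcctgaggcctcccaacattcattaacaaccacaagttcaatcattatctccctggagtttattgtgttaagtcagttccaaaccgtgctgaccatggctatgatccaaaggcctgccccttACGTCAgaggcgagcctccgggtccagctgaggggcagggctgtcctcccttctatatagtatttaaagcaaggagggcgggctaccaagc
G6pc: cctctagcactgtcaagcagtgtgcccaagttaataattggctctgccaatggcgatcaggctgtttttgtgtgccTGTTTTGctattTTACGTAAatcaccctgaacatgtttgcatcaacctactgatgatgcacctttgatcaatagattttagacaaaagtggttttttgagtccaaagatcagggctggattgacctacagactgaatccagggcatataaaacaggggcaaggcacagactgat
Ppargc1a: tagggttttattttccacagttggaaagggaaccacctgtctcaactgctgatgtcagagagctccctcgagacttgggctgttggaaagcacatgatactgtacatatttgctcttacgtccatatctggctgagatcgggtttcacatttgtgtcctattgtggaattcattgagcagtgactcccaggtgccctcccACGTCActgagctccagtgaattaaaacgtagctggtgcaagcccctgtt
Slc37a4: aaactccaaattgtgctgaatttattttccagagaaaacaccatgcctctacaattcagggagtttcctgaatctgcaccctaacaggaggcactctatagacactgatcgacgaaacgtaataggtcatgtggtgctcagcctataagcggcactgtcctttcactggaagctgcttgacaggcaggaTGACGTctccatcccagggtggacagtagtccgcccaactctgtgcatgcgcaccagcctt
Positions are counted back from the start, with -1 the base before it. In Pck1 the cAMP core lay at -91 to -86, in Ppargc1a at -50 to -45 and in Slc37a4 at -61 to -56. RefSeq gave 13 windows for the 10 genes, and 4 windows of 3 genes held this core, among them 2 overlapping windows of Slc37a4 that share 1 match. Of all 32851 promoter windows of the same length, 6.47% held it. TTACGTAA, at -162 to -155 in G6pc, was in 0.113% of all windows. It was searched as an element of the G6pc type, so that its match in G6pc was given in advance and is no finding. CAAAACA, at -174 to -168 in G6pc, was in 5.56% of all windows. Of 3 other motifs searched on both strands, the forkhead motif GTAAACA (in 3.17% of all windows) and the palindromic glucocorticoid response element (in 0.00913%) were in 0 of the 13, and the E-box CACGTG (6.02%) was in windows of 2 genes, Pcx and Klf15. No 2 matches of different motifs overlapped in these windows.

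**Figure D1:**
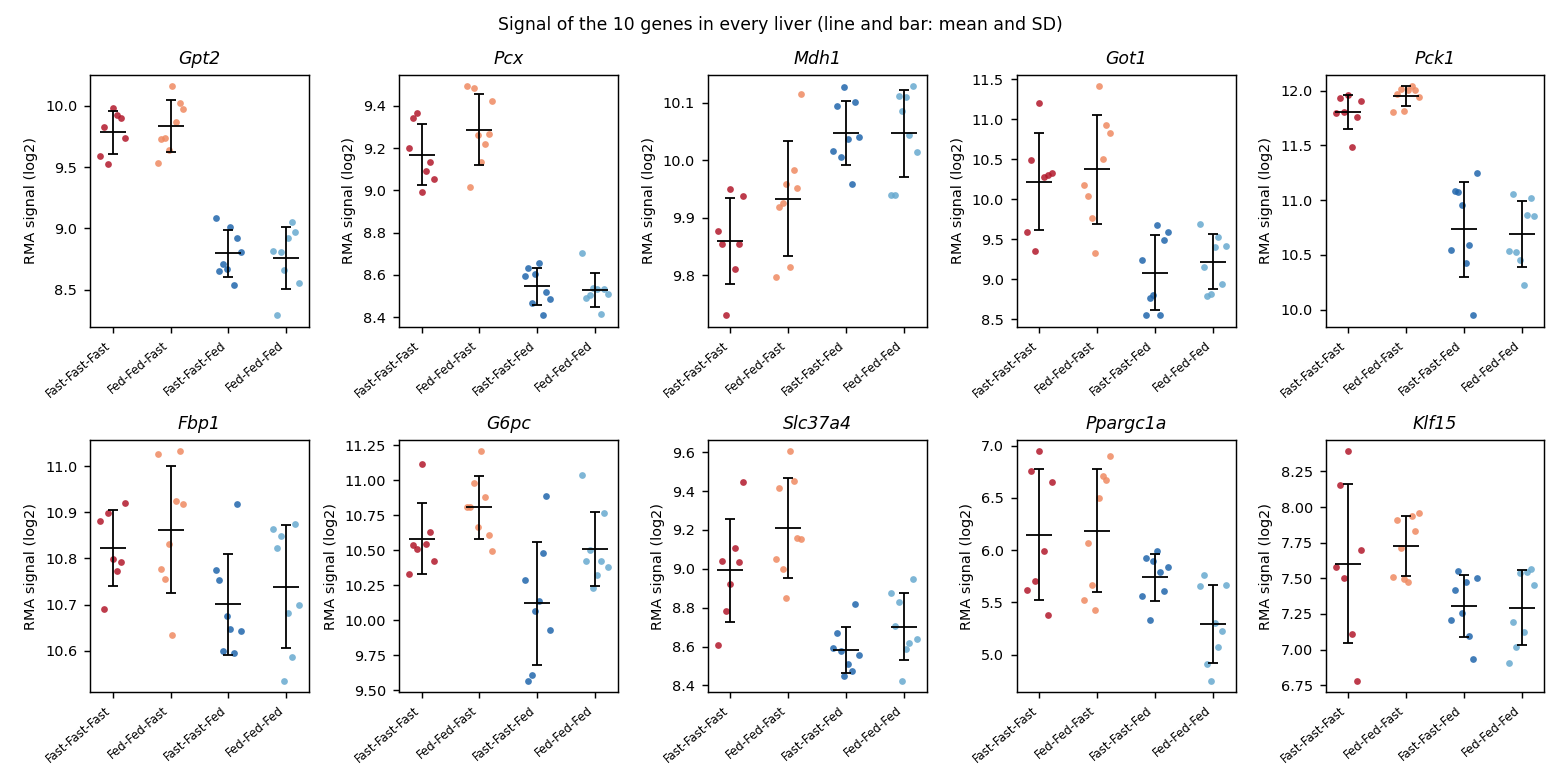
Signal of each gene in every liver (log2, vertical axis), by group along the horizontal axis; points are livers, and the black line and bar are the group mean and SD. Gpt2, Pcx and Pck1 lie higher in every fasted liver than in any fed liver of either history, and the fasted values of Got1 and Ppargc1a spread widely.

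The effect of the last fast was first read in mice that had been fasted before. Of the 10 genes, 6 rose (Gpt2, Pcx, Got1, Pck1, Slc37a4 and G6pc) and 1 fell (Mdh1) at an adjusted p under 0.05, where 11.6% of all genes changed, 6.06% rising and 5.52% falling. The median change of the 10 was 0.44, against 0.000 for all genes. Ppargc1a, Klf15 and Fbp1 did not pass. Shares over all genes, here and throughout, include many dim genes. Of the 22180 genes, 7863 had a mean of at least 4 over all arrays, and all 10 were among these. Dim genes are harder to call, and a share among the brighter genes alone is not given here.

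The same contrast in mice with 0 earlier fasts asks how far a single fast moves the genes. Here 6 rose (Gpt2, Pcx, Got1, Pck1, Slc37a4 and Ppargc1a) and 0 fell, where 12.5% of all genes changed, 6.25% rising and 6.23% falling. The median change of the 10 was 0.63, against -0.004 for all genes. Mdh1, the one gene of the 10 with a change below 0, had an unadjusted p of 0.0391 in limma. Averaged over both histories, 8 rose, 1 fell (Mdh1) and Fbp1 did not pass, where 19.1% of all genes changed, 9.79% rising and 9.36% falling.

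In 3 genes, Gpt2, Pcx and Pck1, fasted livers lay above fed livers without overlap in both histories. Such upward separation was seen in 2.29% of all genes with 2 earlier fasts and in 2.18% with 0. Mdh1 was lower without overlap with 2 earlier fasts, as were 2.08% of all genes, and 0 of the 10 were lower without overlap with 0 earlier fasts, where 2.1% of all genes were.

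**Figure D2:**
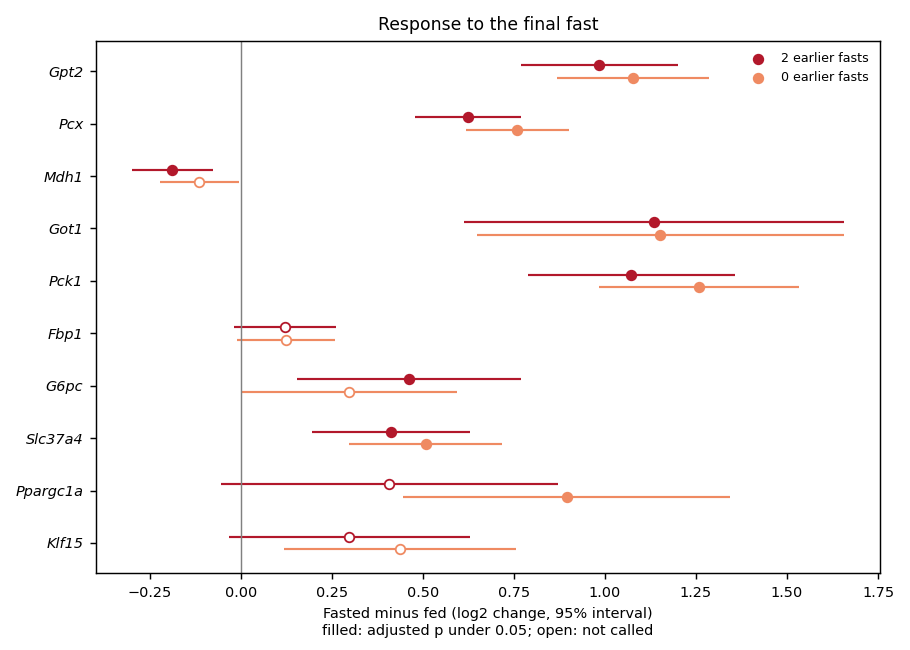
Log2 change of each gene in fasted against fed livers (horizontal axis, with 95% interval), for mice with 2 and with 0 earlier fasts; filled points passed at an adjusted p under 0.05 and open ones did not. Gpt2, Pcx, Got1, Pck1 and Slc37a4 are filled for both histories, and Mdh1 is left of 0 for both.

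Gpt2 and Pcx stand at the entry of alanine and pyruvate carbon. Gpt2 (probe set 17503446) codes for the mitochondrial alanine aminotransferase, which turns alanine into pyruvate. Gpt2 ran from 9.53 to 9.98 with a median of 9.83 in Fast-Fast-Fast livers, against 8.54 to 9.09 with a median of 8.76 in Fast-Fast-Fed livers. It ran from 9.54 to 10.16 with a median of 9.80 in Fed-Fed-Fast livers, against 8.29 to 9.06 with a median of 8.81 in Fed-Fed-Fed livers. Every fasted liver was above every fed liver of the same history. Gpt2 rose by 0.98 with 2 earlier fasts (1.98-fold, SE 0.11, adjusted p = 1.34e-08) and 1.08 with 0 earlier fasts (2.11-fold, SE 0.10, adjusted p = 7.62e-10). Pcx (probe set 17356216) codes for pyruvate carboxylase, which makes oxaloacetate from pyruvate in mitochondria. Pcx ran from 8.99 to 9.37 with a median of 9.13 in Fast-Fast-Fast livers, against 8.41 to 8.66 with a median of 8.56 in Fast-Fast-Fed livers. It ran from 9.02 to 9.49 with a median of 9.26 in Fed-Fed-Fast livers, against 8.42 to 8.70 with a median of 8.52 in Fed-Fed-Fed livers. All fasted livers again exceeded all fed ones. Pcx rose by 0.62 with 2 earlier fasts (1.54-fold, SE 0.07, adjusted p = 4.56e-08) and 0.76 with 0 earlier fasts (1.69-fold, SE 0.07, adjusted p = 2.54e-10).

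Got1 and Mdh1 rebuild oxaloacetate in the cytosol, Got1 from aspartate and Mdh1 from malate, and their transcripts moved in opposite directions in the average over histories. Got1 (probe set 17364932) codes for the cytosolic aspartate aminotransferase. Got1 ran from 9.35 to 11.20 with a median of 10.30 in Fast-Fast-Fast livers, against 8.55 to 9.68 with a median of 9.02 in Fast-Fast-Fed livers. It ran from 9.33 to 11.41 with a median of 10.34 in Fed-Fed-Fast livers, against 8.79 to 9.69 with a median of 9.28 in Fed-Fed-Fed livers. The lowest fasted livers lay inside the fed range in both histories. Got1 rose by 1.13 with 2 earlier fasts (2.20-fold, SE 0.26, adjusted p = 0.00185) and 1.15 with 0 earlier fasts (2.22-fold, SE 0.25, adjusted p = 0.000953). With 0 earlier fasts the change was 1.30 without Fed-Fed-Fast replicate 4, and 1.00 without Fed-Fed-Fast replicate 5. Mdh1 (probe set 17260944) codes for the cytosolic malate dehydrogenase and was the one gene of the set that fell. Mdh1 ran from 9.73 to 9.95 with a median of 9.85 in Fast-Fast-Fast livers, against 9.96 to 10.13 with a median of 10.04 in Fast-Fast-Fed livers. It ran from 9.80 to 10.12 with a median of 9.94 in Fed-Fed-Fast livers, against 9.94 to 10.13 with a median of 10.07 in Fed-Fed-Fed livers. The groups were apart with 2 earlier fasts and overlapped with 0. The change was -0.19 with 2 earlier fasts (0.88-fold, SE 0.05, adjusted p = 0.0182), and without Fast-Fast-Fast replicate 3, the lowest liver, it was -0.17 with an adjusted p of 0.0534. The change was -0.11 with 0 earlier fasts (SE 0.05, adjusted p = 0.193), which did not pass.

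Pck1 (probe set 17380222) codes for the cytosolic phosphoenolpyruvate carboxykinase, which turns oxaloacetate into phosphoenolpyruvate. Pck1 ran from 11.49 to 11.96 with a median of 11.80 in Fast-Fast-Fast livers, against 9.95 to 11.24 with a median of 10.77 in Fast-Fast-Fed livers. It ran from 11.80 to 12.04 with a median of 11.98 in Fed-Fed-Fast livers, against 10.22 to 11.05 with a median of 10.70 in Fed-Fed-Fed livers. No fasted liver was as low as the highest fed liver of its history. Pck1 rose by 1.07 with 2 earlier fasts (2.10-fold, SE 0.14, adjusted p = 5.44e-07) and 1.26 with 0 earlier fasts (2.39-fold, SE 0.13, adjusted p = 8.94e-09). Fasted livers lay close together, with SDs of 0.16 in Fast-Fast-Fast and 0.09 in Fed-Fed-Fast livers. Fed livers were spread, with SDs of 0.44 in Fast-Fast-Fed and 0.30 in Fed-Fed-Fed livers.

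Fbp1, G6pc and Slc37a4 serve the last steps, and their changes were smaller than those of Pck1 and Gpt2. Fbp1 (probe set 17293557) codes for fructose-1,6-bisphosphatase. Fbp1 ran from 10.69 to 10.92 with a median of 10.80 in Fast-Fast-Fast livers, against 10.59 to 10.92 with a median of 10.66 in Fast-Fast-Fed livers. It ran from 10.64 to 11.03 with a median of 10.88 in Fed-Fed-Fast livers, against 10.54 to 10.87 with a median of 10.76 in Fed-Fed-Fed livers. The fasted and fed ranges overlapped in both histories. The change was 0.12 with 2 earlier fasts (SE 0.07, adjusted p = 0.328) and 0.12 with 0 earlier fasts (SE 0.07, adjusted p = 0.293), and neither passed. Averaged over both histories it was 0.12 (95% interval 0.02 to 0.22, adjusted p = 0.073). G6pc (probe set 17256707) codes for the catalytic subunit of glucose-6-phosphatase in the endoplasmic reticulum. G6pc ran from 10.33 to 11.11 with a median of 10.54 in Fast-Fast-Fast livers, against 9.57 to 10.89 with a median of 10.10 in Fast-Fast-Fed livers. It ran from 10.50 to 11.21 with a median of 10.81 in Fed-Fed-Fast livers, against 10.23 to 11.04 with a median of 10.42 in Fed-Fed-Fed livers. The ranges overlapped in both histories. The change was 0.46 with 2 earlier fasts (1.38-fold, SE 0.15, adjusted p = 0.041) and 0.30 with 0 earlier fasts (1.23-fold, SE 0.15, adjusted p = 0.23), so that the first passed and the second did not. The call with 2 earlier fasts was lost when any of 10 single arrays of the 15 was left out, with the highest adjusted p, 0.124, without Fast-Fast-Fast replicate 4. Averaged over both histories G6pc rose 1.30-fold (log2 change 0.38, adjusted p = 0.00765). Slc37a4 (probe set 17516594) codes for the transporter that brings glucose-6-phosphate into the endoplasmic reticulum. Slc37a4 ran from 8.61 to 9.45 with a median of 9.03 in Fast-Fast-Fast livers, against 8.45 to 8.82 with a median of 8.57 in Fast-Fast-Fed livers. It ran from 8.85 to 9.60 with a median of 9.15 in Fed-Fed-Fast livers, against 8.42 to 8.95 with a median of 8.67 in Fed-Fed-Fed livers. The upper fed livers reached into the fasted ranges. Slc37a4 rose by 0.41 with 2 earlier fasts (1.33-fold, SE 0.11, adjusted p = 0.00714) and 0.51 with 0 earlier fasts (1.42-fold, SE 0.10, adjusted p = 0.000494).

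Ppargc1a and Klf15 are regulators of the enzymes. Ppargc1a (probe set 17448001) codes for PGC-1alpha, a coactivator of HNF4alpha and FoxO1 at gluconeogenic promoters. Ppargc1a ran from 5.38 to 6.95 with a median of 5.99 in Fast-Fast-Fast livers, against 5.33 to 5.99 with a median of 5.82 in Fast-Fast-Fed livers. It ran from 5.43 to 6.91 with a median of 6.29 in Fed-Fed-Fast livers, against 4.75 to 5.76 with a median of 5.26 in Fed-Fed-Fed livers. The lowest fasted livers were as low as fed livers of the same history. The change was 0.41 with 2 earlier fasts (1.33-fold, SE 0.23, adjusted p = 0.316) and 0.89 with 0 earlier fasts (1.86-fold, SE 0.22, adjusted p = 0.00408), so that the second passed and the first did not. Klf15 (probe set 17460826) codes for a Krüppel-like factor that promotes amino acid breakdown for gluconeogenesis. Klf15 ran from 6.78 to 8.39 with a median of 7.58 in Fast-Fast-Fast livers, against 6.93 to 7.55 with a median of 7.34 in Fast-Fast-Fed livers. It ran from 7.47 to 7.96 with a median of 7.77 in Fed-Fed-Fast livers, against 6.91 to 7.57 with a median of 7.32 in Fed-Fed-Fed livers. Fasted and fed livers overlapped in both histories. The change was 0.30 with 2 earlier fasts (SE 0.16, adjusted p = 0.297) and 0.44 with 0 earlier fasts (SE 0.16, adjusted p = 0.0664), and neither passed. Averaged over both histories Klf15 rose by 0.37 (SE 0.11, adjusted p = 0.017).

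In 9 of the 10 genes the highest group mean was that of Fed-Fed-Fast livers and the next that of Fast-Fast-Fast livers. These 2 means lay 0.075 (Ppargc1a) to 1.04 (Slc37a4) pooled SDs apart, and no difference between them passed. The genes were read in the same livers and are not independent, and the share of all genes with this order was not computed. For Gpt2, Pcx and Pck1 the gap between the lower fasted mean and the higher fed mean was 4.71, 4.98 and 3.79 times the pooled SD, and every other neighbouring pair in these 3 genes lay within 1 pooled SD. In Got1 that gap was 1.86 pooled SDs, in Slc37a4 1.38, in Klf15 0.90 and in Ppargc1a 0.86. The Slc37a4 means of Fast-Fast-Fast and Fed-Fed-Fast livers were 1.04 pooled SDs apart, with Fast-Fast-Fast lower. In G6pc the Fast-Fast-Fast and Fed-Fed-Fed means were neighbours and differed by 0.07, under the pooled SD of 0.31, and Fast-Fast-Fed livers were lowest, 1.26 pooled SDs below Fed-Fed-Fed. The Fbp1 means kept that order, with each gap within 1 pooled SD. Mdh1 ran the other way, with Fast-Fast-Fast at 9.86 and Fed-Fed-Fast at 9.93, against 10.05 in both fed groups.

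Each of 6 enzymes has a close relative elsewhere in the cell or in other tissues. In 4 pairs (Mdh1, Got1, Gpt2 and Pck1 with their relatives) the fast moved the 2 signals unequally, though Pck2 was dim. Per array, the log2 difference between the 2 genes of a pair was compared between fasted and fed livers by a 2-sided exact permutation test, over 12 tests adjusted together. Got2, Gpt and Mdh2 code for the counterparts of Got1, Gpt2 and Mdh1 in the other compartment. Mdh1 fell relative to mitochondrial Mdh2 by 0.59 with 2 earlier fasts and by 0.47 with 0 (exact permutation, adjusted p = 0.000622 for both). The difference Mdh1 minus Mdh2 was 0.46 to 0.68 in Fast-Fast-Fast against 1.04 to 1.39 in Fast-Fast-Fed livers, and 0.47 to 0.87 in Fed-Fed-Fast against 0.89 to 1.42 in Fed-Fed-Fed livers. The groups did not overlap, and Mdh2 itself rose by 0.40 with 2 earlier fasts and 0.35 with 0 (adjusted p = 1.7e-05 and 5.71e-05). Got1 rose relative to mitochondrial Got2 by 1.17 with 2 earlier fasts and by 0.97 with 0 (exact permutation, adjusted p = 0.0016 and 0.00606). Got2 changed by -0.03 with 2 earlier fasts, which did not pass (adjusted p = 0.85), and rose by 0.18 with 0 (adjusted p = 0.0445). Gpt2 rose relative to cytosolic Gpt by 0.70 with 2 earlier fasts and 0.73 with 0 (exact permutation, adjusted p = 0.000932 and 0.000622), while Gpt itself rose by 0.28 with 2 and 0.35 with 0 (adjusted p = 0.031 and 0.00421). Pairs differed, then, in which compartment's transcript rose relative to the other: the cytosolic one for aspartate, the mitochondrial one for alanine and malate. The tests compare signed changes, and in the malate pair the change of Mdh1 was below 0. Sizes of change regardless of direction were not tested.

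Pck1 rose relative to Pck2, the mitochondrial carboxykinase gene, by 0.88 with 2 earlier fasts and 1.30 with 0 (exact permutation, adjusted p = 0.000932 for both). Pck2 was dim in all groups, at 3.64 to 3.83 on average. This pair therefore mainly reads Pck1, which itself rose by 1.07 with 2 earlier fasts and 1.26 with 0. G6pc3, the gene of the widely expressed glucose-6-phosphatase, rose by 0.36 with 2 earlier fasts and 0.57 with 0 (adjusted p = 0.029 and 0.00022), and was about as dim, at 3.46 to 4.03 on average. G6pc changed relative to G6pc3 by 0.10 with 2 earlier fasts and -0.27 with 0, which did not pass (exact permutation, adjusted p = 0.684 and 0.157). Fbp2, the muscle isoform beside Fbp1, was near the floor of the array, at 1.66 to 2.11 on average, so that no relative change of Fbp1 was read from this pair. The smallest p that these tests allow is 0.000155.

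**Figure D3:**
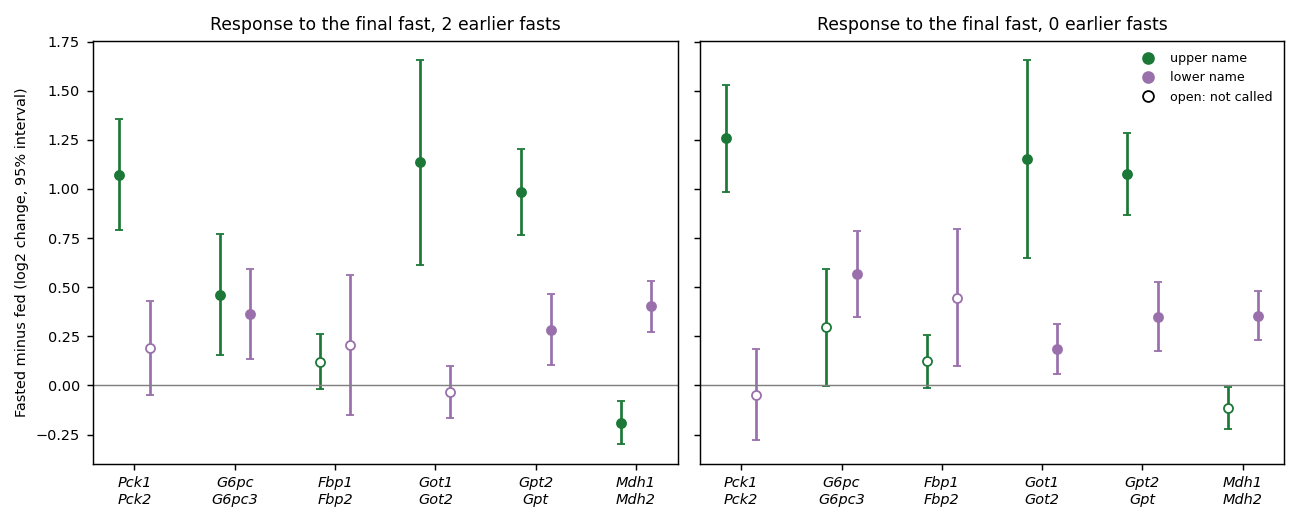
Log2 change in fasted against fed livers (vertical axis, with 95% interval) for 6 pairs of related genes, in mice with 2 earlier fasts (left) and with 0 (right); green is the upper name of each pair and purple the lower, and open points did not pass. Got1, Gpt2 and Pck1 lie above their partners, and Mdh1 lies below Mdh2.

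Beside the 10 genes, the rest of the pathway was read from 4 lists. For scale, 6.06% of all genes rose and 5.52% fell with 2 earlier fasts, and 6.25% rose and 6.23% fell with 0. Of 18 measured genes of the path itself, 8 rose and 1 fell with 2 earlier fasts, and 9 rose and 1 fell with 0. Their median change was 0.20 with 2 earlier fasts and 0.28 with 0. The 18 include the relatives compared above. Mdh2, Gpt and G6pc3 are among the risen genes with either history, and Got2 among those with 0 earlier fasts. Ldha, the lactate dehydrogenase A gene, rose by 0.87 with 2 earlier fasts and 0.73 with 0. Slc25a12, a mitochondrial aspartate-glutamate carrier gene, rose by 0.49 with 2 earlier fasts and 0.52 with 0, and Slc25a10, of the dicarboxylate carrier that moves malate, by 0.42 with 2 earlier fasts and 0.53 with 0. The one that fell was Slc2a2, the gene of the hepatic glucose transporter GLUT2, by 0.65 with 2 earlier fasts and 0.43 with 0 (adjusted p = 0.000829 and 0.026). Without Fed-Fed-Fast replicate 5, 0 of the 18 fell with 0 earlier fasts.

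Of 8 genes of substrate entry, 1 rose and 2 fell with 2 earlier fasts (median 0.14), and 4 rose and 2 fell with 0 (median 0.20). With 0 earlier fasts, 2 rose when only the groups compared were fitted, and 1 fell without Fed-Fed-Fast replicate 4. Gpd1, which links glycerol phosphate to the path, rose by 0.53 with 2 earlier fasts and 0.56 with 0. Tat, a tyrosine aminotransferase gene, changed by 0.15 with 2 earlier fasts, which did not pass (adjusted p = 0.468), and rose by 0.37 with 0 (adjusted p = 0.014). Slc38a3, a glutamine transporter gene, fell by 0.39 with 2 earlier fasts and 0.36 with 0, and Prodh, of proline breakdown, by 0.50 with 2 earlier fasts and 0.33 with 0.

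Of 8 genes of glycolytic and pyruvate steps and their control, 4 fell and 1 rose with either history, with medians of -0.34 with 2 earlier fasts and -0.14 with 0. Pklr, the liver pyruvate kinase gene, fell by 2.02 with 2 earlier fasts and 1.73 with 0. Mlxipl, the gene of the glucose-responsive factor ChREBP, fell by 0.99 with 2 earlier fasts and 1.00 with 0. Gckr, the gene of the glucokinase regulatory protein, fell by 0.57 with 2 earlier fasts and 0.50 with 0. Pdk4, of a kinase that shuts the pyruvate dehydrogenase complex, rose by 1.37 with 2 earlier fasts and 1.19 with 0.

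Of 21 regulators, 6 rose and 2 fell with 2 earlier fasts (median 0.18), and 9 rose and 2 fell with 0 (median 0.25). Irs2, an insulin receptor substrate gene, rose by 1.29 with 2 earlier fasts and 1.19 with 0, and Cebpb, a C/EBP factor gene, by 0.61 with 2 earlier fasts and 1.11 with 0. Creb3l3, of a membrane-bound liver factor, rose by 0.40 with 2 earlier fasts and 0.55 with 0, and Ppara, of the fatty acid receptor PPARalpha, by 0.52 with 2 earlier fasts and 0.47 with 0. Esrrg, an orphan nuclear receptor gene, changed by 0.27 with 2 earlier fasts, which did not pass (adjusted p = 0.292), and rose by 0.52 with 0 (adjusted p = 0.00902). Its signal was dim, with a mean of 3.15 over all arrays. Cebpa fell by 0.50 with 2 earlier fasts and 0.28 with 0, and the glucocorticoid receptor gene Nr3c1 by 0.42 with 2 earlier fasts and 0.34 with 0. Without Fed-Fed-Fast replicate 5, 1 regulator fell with 0 earlier fasts.

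Gluconeogenic enzymes are known to be richer in periportal hepatocytes. Of 6 measured periportal markers, 1 rose and 3 fell with 2 earlier fasts, and 2 rose and 2 fell with 0. Of 8 pericentral markers, 2 rose and 2 fell with 2 earlier fasts, and 3 rose and 1 fell with 0. Of 8 Kupffer cell markers, 3 fell with 2 earlier fasts and 6 with 0, and 0 rose with either history. Across all genes, 6.06% rose and 5.52% fell with 2 earlier fasts, and 6.25% rose and 6.23% fell with 0. Marco changed by 0.36 with 2 earlier fasts and 0.39 with 0, and Cd163 by -0.01 and 0.03, and neither passed. The summed signal of the 8 Kupffer cell markers was 8.03 to 8.94 in Fast-Fast-Fast against 8.13 to 9.35 in Fast-Fast-Fed livers, and 7.89 to 9.06 in Fed-Fed-Fast against 8.42 to 9.69 in Fed-Fed-Fed livers, and the dimmest of these markers averaged 4.10. In bulk liver, fewer cells of a type and less RNA per cell cannot be told apart. The part of cell makeup in the changes of the 10 genes was not tested.

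The comparison of histories asks whether 2 earlier fasts left a mark on these genes. At an adjusted p under 0.05 in limma, 0 of the 10 differed between histories in fasted livers, in fed livers or averaged over both, and 0 showed an interaction of history with the final state; of all genes, 0% were called in each. At an unadjusted p under 0.05 there were 1, 2, 2 and 0 of the 10, where 4.49%, 5.61%, 5.34% and 4.61% of all genes passed in those 4 comparisons. All 10 genes overlapped between histories in both states; 0.0361% of all genes did not overlap in fasted livers and 0.00902% in fed livers.

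The intervals show how large a difference these arrays could have missed. Pcx was -0.12 (95% interval -0.26 to 0.03) in Fast-Fast-Fast against Fed-Fed-Fast livers, and 0.02 (-0.12 to 0.16) in Fast-Fast-Fed against Fed-Fed-Fed livers. For Gpt2 these were -0.05 (-0.27 to 0.17) and 0.04 (-0.17 to 0.25), and for Pck1 -0.14 (-0.43 to 0.14) and 0.04 (-0.23 to 0.32). Mdh1 and Fbp1 had the tightest limits in fed livers, -0.11 to 0.11 for Mdh1 and -0.17 to 0.10 for Fbp1. Got1 was least well bounded, with intervals of -0.67 to 0.37 in fasted and -0.64 to 0.37 in fed livers.

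G6pc had the smallest unadjusted p of the set for history. Its mean was 10.58 ± 0.25 in Fast-Fast-Fast against 10.81 ± 0.22 in Fed-Fed-Fast livers (SD, n = 7 and 8), and 10.12 ± 0.44 in Fast-Fast-Fed against 10.51 ± 0.26 in Fed-Fed-Fed livers (SD, n = 8 each). Averaged over states it was lower by 0.31 after 2 earlier fasts (95% interval -0.52 to -0.09), which did not pass over all genes (adjusted p = 0.891), and 140 other genes had smaller p-values. Slc37a4, its partner in the endoplasmic reticulum, was at -0.17 (95% interval -0.32 to -0.02, adjusted p = 0.925). Ppargc1a in fed livers was 5.74 ± 0.23 in Fast-Fast-Fed against 5.29 ± 0.38 in Fed-Fed-Fed livers (SD, n = 8 each), a difference of 0.45 (95% interval 0.00 to 0.90, adjusted p = 0.888). Its response to the final fast was 0.41 with 2 earlier fasts and 0.89 with 0, and the difference of the responses was not resolved (-0.49, 95% interval -1.13 to 0.16, adjusted p = 0.999).

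**Figure D4:**
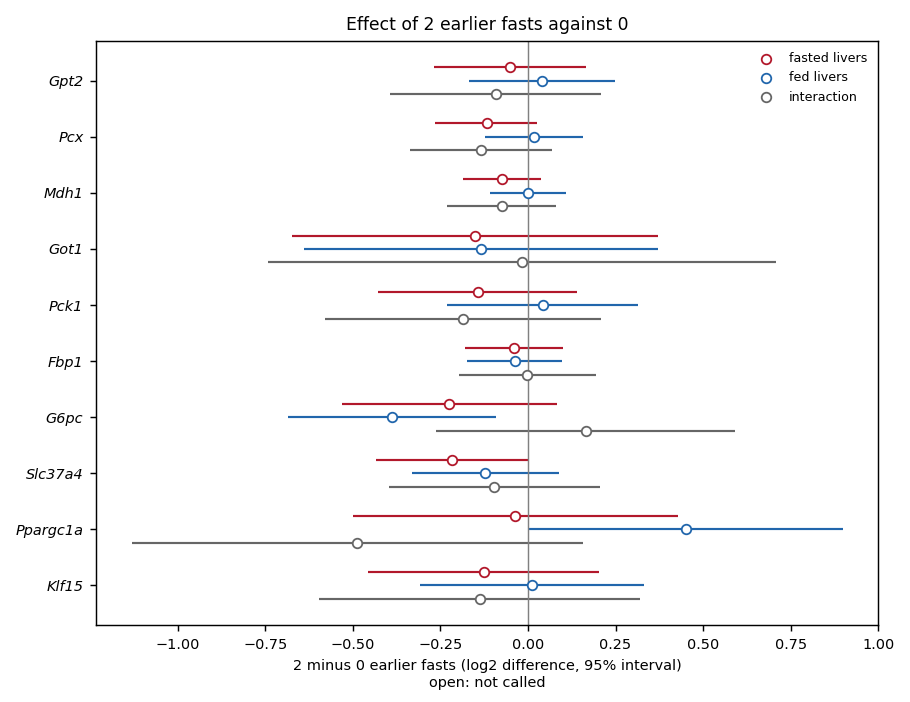
Difference between 2 and 0 earlier fasts for each gene (log2, horizontal axis, with 95% interval), in fasted livers, in fed livers, and as the interaction (response with 2 minus response with 0 earlier fasts). All points are open, so that none of the 30 differences passed, and the widest intervals belong to Got1 and Ppargc1a.

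The genes differed in how much they varied among mice of 1 group. From the lowest to the highest liver, Got1 covered 3.61-fold in Fast-Fast-Fast and 4.25-fold in Fed-Fed-Fast livers, against 2.19-fold in Fast-Fast-Fed and 1.86-fold in Fed-Fed-Fed livers. Ppargc1a covered 2.96-fold in Fast-Fast-Fast and 2.78-fold in Fed-Fed-Fast livers, against 1.58-fold in Fast-Fast-Fed and 2.01-fold in Fed-Fed-Fed livers. Pck1 had the wider ranges in fed livers, with 1.38-fold in Fast-Fast-Fast and 1.18-fold in Fed-Fed-Fast livers, against 2.46-fold in Fast-Fast-Fed and 1.78-fold in Fed-Fed-Fed livers. G6pc was widest in Fast-Fast-Fed livers, at 2.50-fold. Fbp1 and Mdh1 stayed within 1.32-fold in all 4 groups. These spreads are descriptions and were not tested against each other.

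Single livers recur at the ends of the ranges. Fast-Fast-Fast replicate 4 was the highest of its group in 7 of the 10 genes, among them G6pc, Ppargc1a, Got1 and Klf15, and the lowest in Pcx. Without it, the response with 2 earlier fasts was 0.37 for G6pc, 0.28 for Ppargc1a, 0.97 for Got1 and 0.17 for Klf15. Fed-Fed-Fast replicate 5 was the highest of its group in 4 genes and the lowest in Fbp1 and Klf15. Fed-Fed-Fast replicate 4, with the adipocyte markers, was the lowest in Slc37a4, Ppargc1a and Got1. Leaving it out changed none of the 10 calls of the response with 0 earlier fasts, and the change of Ppargc1a was then 1.00. Fast-Fast-Fed replicate 7 had the lowest Pck1 of its group, 9.95, and the highest G6pc, 10.89.

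Covariation among mice was measured on values minus their group mean over all 31 arrays, so that differences between group means do not enter. Spread was not made equal between groups. Groups with a wider spread therefore weigh more, such as the fasted ones for Got1 and Ppargc1a. Of 45 pairs of the 10 genes, 3 passed by Pearson's r with a permutation within groups, and the same number by Spearman's rho. Both aminotransferase genes, Got1 and Gpt2, had r = 0.67 and rho = 0.69 (permutation, adjusted p = 0.00315 for both). The coactivator gene Ppargc1a and Got1 had r = 0.66 and rho = 0.63 (permutation, adjusted p = 0.009 and 0.0164). Pck1 and Klf15 had r = 0.48 and rho = 0.56 (permutation, adjusted p = 0.0102 and 0.0247). Without the 2 arrays farthest from the median of the first gene of a pair, r was 0.62, 0.66 and 0.44. Without Fed-Fed-Fast replicate 4 the 3 pairs passed again by r (0.66, 0.61 and 0.47), and rho of Pck1 and Klf15 did not (permutation, adjusted p = 0.051).

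Within single groups, r of Got1 and Gpt2 was 0.89 in Fast-Fast-Fast, 0.87 in Fed-Fed-Fast, 0.80 in Fast-Fast-Fed and 0.18 in Fed-Fed-Fed livers. For Ppargc1a and Got1 it was 0.73, 0.81, 0.11 and 0.61 in the same groups, and for Pck1 and Klf15 0.74, 0.56, 0.76 and 0.46. Pck1 and G6pc had r = -0.41 and rho = -0.27 over all arrays, which did not pass (permutation, adjusted p = 0.293 and 0.481), and without the 2 farthest arrays r was -0.16. Within groups their r was 0.30 in Fast-Fast-Fast, 0.34 in Fed-Fed-Fast, -0.88 in Fast-Fast-Fed and 0.17 in Fed-Fed-Fed livers, so that it was below 0 in 1 of the 4 groups. Over all 45 pairs r ran from -0.41 to 0.67 with a median of 0.08, and the values of 1 liver share an array and its normalization.

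**Figure D5:**
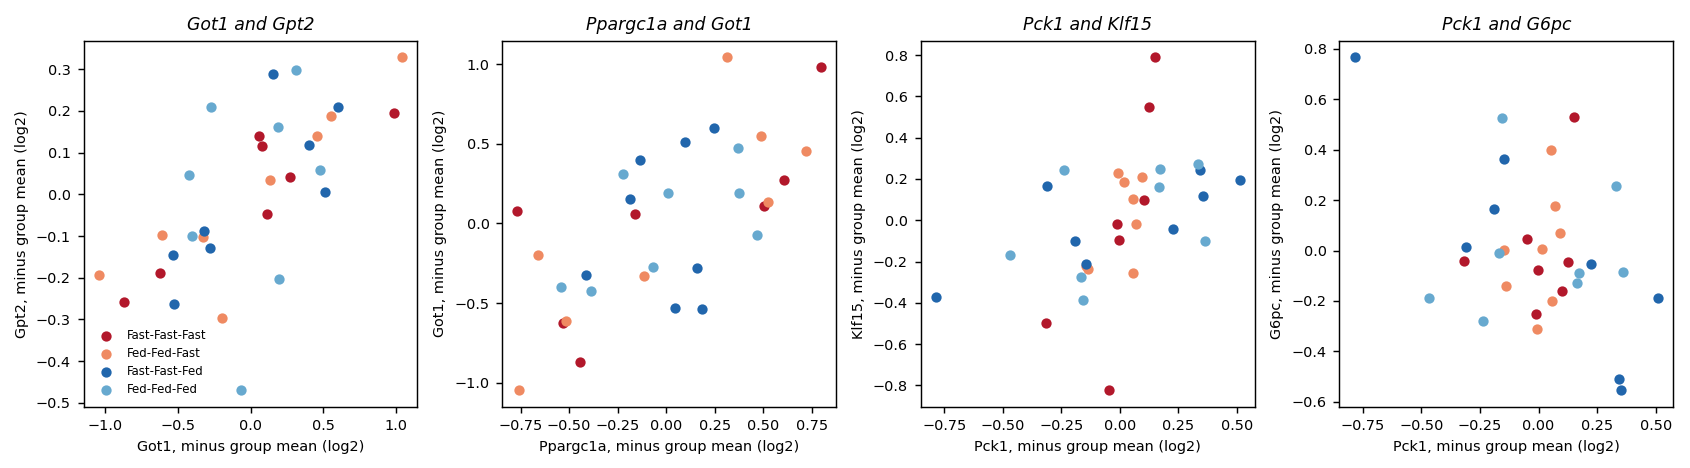
Each point is 1 liver, plotted as its log2 signal minus the mean of its group, for 4 pairs of genes. Points of Got1 and Gpt2, of Ppargc1a and Got1 and of Pck1 and Klf15 rise together (r = 0.67, 0.66 and 0.48), and in the panel of Pck1 and G6pc (r = -0.41) Fast-Fast-Fed replicate 7 is at the upper left.

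Among 7655 other genes with a mean of at least 4, predicted and numbered gene models being left out, the most alike over the 31 arrays were found for 4 of the genes, again on values minus group means. For Ppargc1a they were Lpin1 (r = 0.79), Asl (0.77) and Tat (0.74). For Klf15 they were Sdc4 (0.78), Upp2 (0.76) and Gne (0.74). For Pck1 they were Dtnbp1 (0.68), Cblb (0.68) and Setd1b (0.67), and for G6pc Tnfaip1 (0.68), Atf5 (0.66) and U2surp (0.64). These are the highest of many correlations and are given as a description, with no test.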

How the data were processed

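Values were log2 signals of 41345 probe sets that the authors made with RMA, per the submitters' processing notes; its version and a genome build are not given in the sources used here. RNA of 100 ng per liver was labelled with biotin, per the labels' protocols. The platform annotation named 1 gene for 23521 probe sets, several for 1814 and none for 16010. The probe set with the highest mean stood for each of 22180 genes. All 4 groups were fitted as means in limma 3.58.1 (R 4.3.3), 2-sided, with Benjamini-Hochberg adjustment over all genes and a threshold of 0.05. Covariation used 1e+05 permutations within groups. The fit was tested on simulated data. Promoters came from RefSeq, GRCm38.p6.

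The 10 genes and the lists were chosen with earlier results of these data known. Beyond the 10 genes and their 6 relatives, genes are named as up to 4 called genes of each list with the largest changes, or as the genes that fell in a list. Alternatives were the mean of probe sets, a minimum mean of 4, an intensity trend, cyclic loess, only the groups compared, replicate number as a block, and arrays left out. Leaving out each array in turn, or Fed-Fed-Fast replicate 4, was chosen after seeing the data. Some list genes were not analysed here.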

Additional observations from a re-analysis of the deposited data

Results flagged for a closer look

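In 64 sets of values (16 genes in 4 groups), 8 had a liver whose gap to its nearest neighbour was unusually large for the range of its group; chance alone gives about 1 in 20. Pck1 was lowest in Fast-Fast-Fast replicate 5, at 11.49 with the next liver at 11.76. G6pc was highest in Fast-Fast-Fast replicate 4, at 11.11 with the next at 10.63. Pcx was highest in Fed-Fed-Fed replicate 1, at 8.70 with the next at 8.54. Pck2 was highest in Fast-Fast-Fed replicate 6, at 4.03 with the next at 3.67. Mdh2 was lowest in Fed-Fed-Fast replicate 4, at 9.09 with the next at 9.24. Fbp2, which is near the floor, was highest at 3.13 in Fed-Fed-Fast replicate 5, at 2.66 in Fast-Fast-Fed replicate 1 and at 2.26 in Fed-Fed-Fed replicate 4.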

How the results depend on the processing

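The counts of called genes among the 10 stayed within 1.5 times under every alternative other than leaving out single arrays, and so did the counts of all genes, which were not recounted for each array left out but stayed so without Fed-Fed-Fast replicate 5. For the 10 genes the mean of probe sets is no check, since each was read by 1 probe set and its change cannot move. Leaving out 1 array at a time left 5 to 6 risen and 0 to 1 fallen with 2 earlier fasts, the lower number fallen without Fast-Fast-Fast replicate 3, and 6 risen and 0 fallen with 0 earlier fasts. G6pc with 2 earlier fasts did not pass with cyclic loess (adjusted p = 0.0562), with only the groups compared (0.0974) or with the replicate block (log2 change 0.43, adjusted p = 0.0764). Klf15 with 0 earlier fasts passed with a minimum mean of 4 (adjusted p = 0.0296, fewer genes being tested) and with only the groups compared (0.0125). Fbp1 averaged over histories passed with that minimum (0.0268), an intensity trend (0.0363), the replicate block (0.0452) and without Fed-Fed-Fast replicate 5 (0.0345). Changes of sign were seen in small, uncalled differences. Ppargc1a between histories in fasted livers was 0.0212 with the replicate block, and -0.144 to 0.0092 without single Fed-Fed-Fast arrays (replicates 4 and 5). The interaction of Got1 was 0.0378 with the replicate block, and -0.1665 to 0.1316 without these arrays. The history effect of Gpt2 averaged over states was -0.0189 to 0.0184 without them. The cause was not tested. All 36 alternative values of the pairs of related genes kept direction and call. The count of covarying pairs was 3 by rho, and 3 by r with cyclic loess and without Fed-Fed-Fast replicate 4 or 5, while by rho without replicate 4 the pair of Pck1 and Klf15 did not pass. Replicate numbers are not known to pair mice. Of 45 same-numbered pairs of arrays in different groups, 3 had deviations correlated above 0.1 (median 0.033). Of 315 other-numbered pairs, 6 did (median -0.003). Of 31 arrays, 7 were most like an array of their own number. Whether arrays of 1 number share variation was not tested. The block changed no other call of the 10 genes.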
